A study of Arabidopsis thaliana with 4 samples.

Results

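The early auxin response families followed here are 35 Arabidopsis thaliana genes, namely 24 Aux/IAA genes, 5 GH3 genes (GH3.1, GH3.2, GH3.3, GH3.5 and GH3.6) and the 6 neighbouring genes SAUR19 to SAUR24. They were taken by locus identifier from tables of 31319 loci, and all 35 were found in each table. The rule that picks them uses names and no measured value, although the set was proposed with earlier results of these data known.

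Leaf RNA was sequenced from 2 genotypes, Col-0 wild type (WT) and the mutant myc2-2 in the Col-0 background, called myc2 below, which carries a mutation in the gene of the jasmonate-responsive transcription factor MYC2. For each genotype, a library labelled air came from 4-week-old plants before submergence. A library labelled R3 came from plants submerged in the dark for 24 h and sampled 3 h after submergence, and 6 plants supplied each leaf sample. The time of R3 rests on the sample labels, because the accompanying protocol text instead gives harvests at 0 and 24 h of reoxygenation. No library came from plants kept in the dark in air, so R3 against air also holds darkness and the time of harvest, which cannot be told apart from submergence and reoxygenation. Each group is 1 library of pooled plants, so no difference has a replicate check and none was tested.

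Auxin acts through TIR1/AFB F-box receptors, which bind Aux/IAA proteins in the presence of auxin and mark them for degradation. Aux/IAA proteins otherwise hold auxin response factors (ARFs) inactive by recruiting TOPLESS co-repressors. Many Aux/IAA genes are themselves switched on by ARFs, so their transcripts are used as readouts of auxin signalling and form a negative feedback. GH3 enzymes of the group studied here conjugate auxin to amino acids and so lower the free hormone. SAUR19 to SAUR24 encode small, short-lived proteins that promote cell expansion by inhibiting protein phosphatases that act on the plasma membrane proton pump.

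Promoter sequences are shown first for the Aux/IAA and the GH3 genes with the highest R3 level relative to air in WT, IAA19 and GH3.2, each followed by a related member. Each runs 5′ to 3′ on the gene's strand from 250 bases before to 50 bases after the start annotated by RefSeq on TAIR10.1. Capitals mark the auxin response element core TGTCTC, its variant TGTCGG and the G-box CACGTG, searched on both strands. The IAA19 window is chr3:5263751-5264050 (+ strand), that of IAA6 chr1:19673603-19673902 (- strand), that of GH3.2 chr4:17579368-17579667 (+ strand) and that of GH3.3 chr2:9866513-9866812 (- strand).
IAA19: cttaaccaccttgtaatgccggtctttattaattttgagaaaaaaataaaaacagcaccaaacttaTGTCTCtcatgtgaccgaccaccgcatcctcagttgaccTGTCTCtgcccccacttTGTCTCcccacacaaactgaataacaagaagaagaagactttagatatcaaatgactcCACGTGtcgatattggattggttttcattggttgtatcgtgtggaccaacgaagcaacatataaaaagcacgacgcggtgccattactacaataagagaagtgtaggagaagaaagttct
IAA6: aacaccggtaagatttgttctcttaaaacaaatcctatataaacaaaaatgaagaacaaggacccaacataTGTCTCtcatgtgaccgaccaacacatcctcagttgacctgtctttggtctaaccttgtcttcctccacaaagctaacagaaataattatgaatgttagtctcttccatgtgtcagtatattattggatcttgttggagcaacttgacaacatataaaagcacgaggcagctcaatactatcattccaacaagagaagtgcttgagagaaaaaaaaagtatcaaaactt
GH3.2: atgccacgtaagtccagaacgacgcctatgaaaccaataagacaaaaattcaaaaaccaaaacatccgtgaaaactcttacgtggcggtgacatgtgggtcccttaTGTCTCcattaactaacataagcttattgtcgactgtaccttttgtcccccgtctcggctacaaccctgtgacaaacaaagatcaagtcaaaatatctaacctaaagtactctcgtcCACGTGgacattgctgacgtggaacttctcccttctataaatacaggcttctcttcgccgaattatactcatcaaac
GH3.3: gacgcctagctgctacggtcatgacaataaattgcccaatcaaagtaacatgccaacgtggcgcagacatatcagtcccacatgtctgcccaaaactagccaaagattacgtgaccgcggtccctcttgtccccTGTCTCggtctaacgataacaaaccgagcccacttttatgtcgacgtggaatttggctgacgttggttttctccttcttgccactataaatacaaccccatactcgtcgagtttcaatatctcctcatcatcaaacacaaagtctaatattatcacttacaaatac
The IAA19 window held TGTCTC at 3 positions, -184, -145 and -128 counted from the annotated start as 0, and CACGTG at -70. IAA6 held TGTCTC at -179. The IAA19 and IAA6 windows shared a run of 23 identical bases around that element, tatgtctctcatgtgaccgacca, the longest exact run among the 276 pairs of Aux/IAA promoters, whose median was 9 bases. The next longest run, 18 bases, joined IAA20 and IAA30 and also held the element core.

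The core TGTCTC was present in the windows of 8 of 24 Aux/IAA genes, 4 of 5 GH3 genes and 2 of 6 SAUR genes, against 14.2% of 26711 promoters of the same length. TGTCGG was in 6 of 24 Aux/IAA windows and in none of the GH3 or SAUR windows, against 5.12% of all promoters. Either form was in 12 of 24, 4 of 5 and 2 of 6 windows, against 18.6%. The G-box, the kind of site that MYC2 and PIF factors bind, was in 5 Aux/IAA windows (IAA7, IAA14, IAA19, IAA20 and IAA30), in GH3.2 and in no SAUR window, against 7.79%. These matches are letters in a window, and binding was not measured.

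The part of Aux/IAA proteins that the receptors recognise, the degron, has a core of glycine, tryptophan and 2 prolines. Its coding sequence is shown for members described below, with the 12 bases of the core in capitals within 30 bases.
IAA19: caggtggtgGGGTGGCCACCGgtttgttct
IAA2: caaatcgttGGTTGGCCACCAgtgagatct
IAA28: ccagtggtgGGATGGCCGCCGgtgagatca
IAA16: caagttgtgGGATGGCCACCGgtacgatct
IAA8: caggttgttGGTTGGCCTCCAatcagatca
IAA17: caagttgtgGGATGGCCACCGgtgagatca
IAA10: gttgctgtaGGTTGGCCGCCTctacggact
The core was encoded by 22 of the 24 Aux/IAA members in 13 different spellings. IAA20 and IAA30 lack it. The longest annotated Aux/IAA proteins of each gene ran from 163 residues in IAA5 to 338 in IAA8 and IAA9.

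Values were RPKM, reads per kilobase of gene and 1000000 reads. Lists of 4 values below run from air to R3 in WT and then from air to R3 in myc2. The steps of the values showed whole reads, which gave a depth of 29208488, 27716154, 30462393 and 22308542 reads in that order. Folds below are ratios of RPKM with a 95% counting interval, which covers counting error only and not differences between plants or libraries. Log2 ratios are log2((RPKM + 1)/(RPKM + 1)) for genes whose mean over the libraries compared reached 1 RPKM, and they understate the ratios of low genes. A gene under 1 RPKM in air or in R3 can pass through the other library alone, and passing in this way favours a large ratio. The same filter was used for all genes. The median log2 ratio of all genes that pass was 0.57 for R3 against air in WT, 0.30 for the same in myc2, 0.22 for myc2 against WT in air and 0.04 in R3. Rescaling the libraries to the median of their ratios moved the first 3 of these to 0.04, 0.03 and -0.03, so family medians are also given less the median of all genes. Levels of different genes are per length, but the lengths behind the values exceeded the RefSeq exon length in 21 of 28 Aux/IAA and GH3 members for which a length was recovered, so an order of levels between genes is approximate.

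MYC2 was at 45.9 RPKM in WT air and 91.7 in WT R3, and at 14.2 in myc2 air and 34.9 in myc2 R3, so the mutant libraries held less of its transcript but were not at 0. Leaf genes were abundant in air, with the Rubisco small subunit gene RBCS1A at 18319 RPKM in WT air, and all 4 leaf markers were at least 2-fold lower in R3 in either genotype. Of 6 genes of other organs, the petal and stamen gene PI was at 0.609 RPKM in air and 11.3 in R3 in WT, and at 2.08 and 17.0 in myc2. The root and seedling gene PYK10 was at 2.91, 62.8, 6.54 and 11.4 RPKM in the order given above. AP3 and SEP3 stayed at or below 3.27 RPKM in every library, and AG and the seed gene CRA1 at or below 0.422. Their part in the results below was not tested, and in bulk leaf RNA fewer cells of a type and less RNA per cell cannot be told apart.

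In WT, the 3 families differed in direction. The 4 GH3 genes that pass were all at least 2-fold higher in R3, the Aux/IAA genes were spread on either side of the median of all genes, and the SAUR genes were all lower in R3. GH3.2, GH3.3 and IAA5 were under 1 RPKM in WT air and pass only through R3, so a higher call is partly built into their passing. Over the 35 members, 30 passed 1 RPKM in this comparison, 10 of them were at least 2-fold higher in R3 and 6 at least 2-fold lower, against 31.3% and 10.1% of 17271 genes. The share of members that were higher is thus close to that of all genes, while the share that were lower is above it. Of the 6 lower members, 4 are SAUR genes of a single cluster of near copies, while 2 of 21 Aux/IAA genes were lower, close to the share of all genes. With that rescaling, 7 of 30 members were higher and 7 lower, against 17.3% and 17.1% of all genes.

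**Figure D1:**
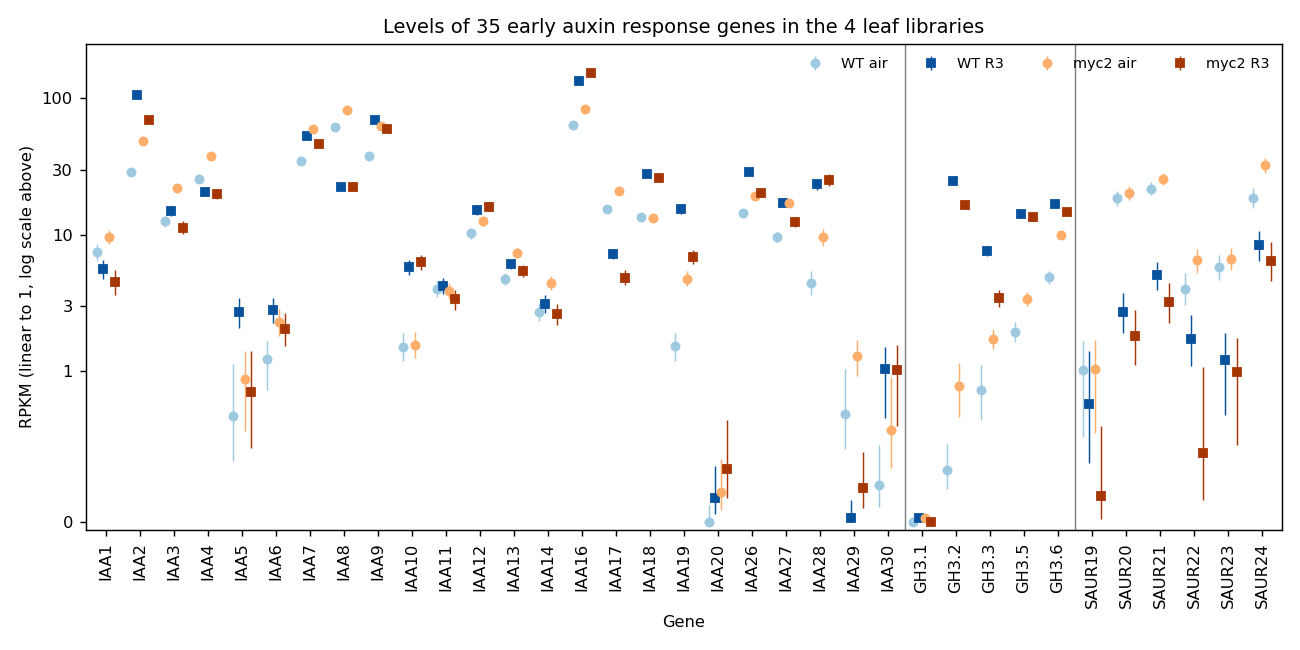
RPKM of each of the 35 genes (y axis, linear up to 1 and logarithmic above) in air and R3 of WT and of myc2, with 1 library each. Bars are 95% counting intervals from the recovered reads, which GH3.1 lacks, and vertical lines part the Aux/IAA, GH3 and SAUR genes. GH3.2 goes from 0.347 RPKM in WT air to 24.6 in WT R3, and SAUR20 from 18.4 to 2.70.

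Of the Aux/IAA repressors, 21 of 24 passed in WT, 6 were at least 2-fold higher in R3 and 2 at least 2-fold lower, close to the 31.3% and 10.1% of all genes. After rescaling 3 were higher and 2 lower, against 17.3% and 17.1%. Their median log2 ratio was 0.76, which is 0.20 above the median of all genes. As a summed level, the 24 genes were at 356 RPKM in WT air and 585 in WT R3. This family median lay between 0.003 and 0.62 above that of all genes under the settings tried.

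IAA19 (AT3G15540), a repressor that acts with ARF7 in hypocotyl growth and tropism, was at 1.51 RPKM in air and 15.3 in R3 in WT, and at 4.74 and 6.85 in myc2. WT R3 stood above the other 3 libraries, and WT air below them. The WT fold was 10.1 (7.94 to 13.1), from 73 and 701 reads. IAA6 (AT1G52830), its relative with the shared promoter run, was at 1.22, 2.79, 2.29 and 2.03 RPKM, with WT air again lowest. IAA5 (AT1G15580), another close relative, was at 0.699, 2.69, 0.946 and 0.861 RPKM, so that WT R3 alone was above 1 RPKM, on 62 reads or fewer in each library. The WT fold of IAA5 was 3.84 (2.22 to 7.01). Its value is uncertain at these few reads, and IAA5 also overlaps a gene on the opposite strand, by 48 bases.

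IAA2 (AT3G23030), an Aux/IAA gene that responds rapidly to auxin, was at 28.9 RPKM in air and 106 in R3 in WT, and at 48.2 and 68.8 in myc2. Its WT fold was 3.65 (3.39 to 3.94), and the R3 library was the higher in either genotype. IAA28 (AT5G25890), a repressor of lateral root initiation, was at 4.44, 23.5, 9.52 and 25.2 RPKM, with the R3 libraries close to each other and well above both air libraries. IAA10 (AT1G04100) was at 1.5, 5.74, 1.56 and 6.25 RPKM, a near-equal pair in air and a near-equal pair in R3, although an opposite-strand gene overlaps it. IAA16 (AT3G04730) had the highest Aux/IAA level in each library, at 63.6, 133, 83.0 and 152 RPKM. IAA18 (AT1G51950) was at 13.5, 27.9, 13.3 and 26.0 RPKM and, at a log2 ratio of 0.99, lay just under the 2-fold limit in WT.

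The Aux/IAA genes at least 2-fold lower in R3 were IAA8 and IAA17. IAA8 (AT2G22670) was at 61.2 RPKM in air and 22.4 in R3 in WT, and at 81.3 and 22.4 in myc2, so that it ranked next to IAA16 in WT air and the R3 levels were equal to 3 digits. IAA17 (AT1G04250, also AXR3), at 15.5, 7.20, 20.8 and 4.83 RPKM, was 2.15-fold lower in R3 in WT (1.93 to 2.41). Its neighbour IAA3 (AT1G04240, also SHY2), 6388 bases away on chromosome 1 with no gene between, was instead at 12.5, 14.8, 21.9 and 11.2 RPKM. The neighbours IAA2 and IAA7 on chromosome 3 also differed, since IAA7 (AT3G23050, also AXR2) was at 34.7, 52.6, 59.1 and 46.1 RPKM. In a last neighbouring pair on chromosome 4, IAA14 (AT4G14550, also SLR) was at 2.71, 3.1, 4.44 and 2.61 RPKM and IAA1 (AT4G14560) at 7.41, 5.55, 9.65 and 4.49 RPKM, with myc2 air highest for each.

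The remaining Aux/IAA genes that pass were less than 2-fold apart in WT on the log2 scale. IAA9 (AT5G65670), a repressor in leaf development, was at 37.4, 69.5, 62.1 and 59.8 RPKM, with WT air lowest. IAA26 (AT3G16500) followed the same order of air and R3 in WT at 14.4, 28.9, 19.2 and 20.3 RPKM, and IAA27 (AT4G29080) was at 9.57, 17.0, 17.1 and 12.4 RPKM. IAA4 (AT5G43700), closely related to IAA3, was at 25.7, 20.5, 37.6 and 19.8 RPKM and so was lower in R3 in either genotype. Among the relatives of IAA12 (AT1G04550, also BDL, a repressor of ARF5 in the embryo), IAA11 (AT4G28640) stayed between 3.34 and 4.18 RPKM, IAA12 between 10.2 and 16.01 and IAA13 (AT2G33310) between 4.73 and 7.33. IAA9, IAA11, IAA13, IAA27 and IAA3 overlap opposite-strand genes, by 44, 12, 1176, 41 and 640 bases, and use of strand is not given in the sources used here. The gene that overlaps IAA13 was at 0 RPKM in each library.

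IAA20, IAA29 and IAA30 did not pass in WT. The degron-less IAA20 (AT2G46990) had 0, 5, 7 and 9 reads, and IAA30 (AT3G62100) had 7, 28, 18 and 22 reads. IAA29 (AT4G32280), a target of PIF factors, went the other way, with 29, 1, 54 and 7 reads. Counting intervals for its ratio were wide, with WT R3 27.5-fold lower than WT air (4.56 to 1124) and myc2 R3 5.65-fold lower than myc2 air (2.56 to 14.7).

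The GH3 enzymes together were at 8.004 RPKM in WT air and 63.2 in WT R3, a summed level 7.89-fold higher. The 4 that pass had a median log2 ratio of 2.28, which is 1.72 above the median of all genes. All 4 were also at least 2-fold higher after rescaling, against 17.3% of all genes, though GH3.2 and GH3.3 pass only through R3. GH3.2 (AT4G37390), an auxin-amido synthetase, was at 0.347 RPKM in air and 24.6 in R3 in WT, and at 0.902 and 16.6 in myc2, low in both air libraries and high in both R3 libraries. Its WT fold was 71.0 (47.5 to 111), from 24 and 1616 reads, and its log2 ratio of 4.25 was the highest of the members. GH3.3 (AT2G23170) was at 0.872, 7.55, 1.72 and 3.41 RPKM, so that myc2 R3 lay between myc2 air and WT R3.

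GH3.5 (AT4G27260, also WES1), which can also conjugate salicylic acid, was at 1.94, 14.2, 3.36 and 13.5 RPKM, with the R3 libraries close together. GH3.6 (AT5G54510, also DFL1) had the highest air level of the 5 members and was at 4.85, 16.7, 9.89 and 14.7 RPKM. The WT folds were 8.66 (6.74 to 11.3) for GH3.3, 7.35 (6.18 to 8.80) for GH3.5 and 3.44 (3.06 to 3.88) for GH3.6. GH3.1 (AT2G14960) was near 0 in all libraries, with at most 0.0314 RPKM. Of 4 other GH3 genes, GH3.17 was at 0.468 RPKM in WT air and 2.14 in WT R3, a log2 ratio of 1.10 that fell under the 2-fold limit, to 0.81, after rescaling. GH3.9 was lower in WT R3, at 3.44 and 0.471 RPKM. GH3.10 was at 13.8 and 16.01 RPKM, and GH3.4 was at 0.

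The SAUR genes went against the GH3 genes. Summed over the 6, SAUR transcripts were at 69.4 RPKM in WT air and 19.7 in WT R3, and at 91.9 in myc2 air and 13.04 in myc2 R3. The summed level was 3.52-fold lower in R3 in WT and 7.04-fold lower in myc2, from 896, 222, 1184 and 114 reads. Of the 5 that pass in WT, 4 were at least 2-fold lower, against 10.1% of all genes, and all 5 were after rescaling, against 17.1%. The family median of -1.62 lay 2.18 below that of all genes.

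SAUR20 (AT5G18020) was at 18.4 RPKM in air and 2.70 in R3 in WT, and at 20.2 and 1.81 in myc2. Both air libraries stood far above both R3 libraries, and the WT level was 6.82-fold lower in R3 (4.82 to 9.90). SAUR21 (AT5G18030) was at 21.7, 5.01, 25.5 and 3.2 RPKM, and SAUR23 (AT5G18060) at 5.74, 1.2, 6.65 and 0.991 RPKM, with the same order of the libraries. SAUR24 (AT5G18080) was at 18.6, 8.33, 32.1 and 6.4 RPKM, the highest SAUR level in myc2 air. SAUR22 (AT5G18050), at 4.00, 1.70, 6.46 and 0.459 RPKM, rested on 23 reads in WT R3 and 5 in myc2 R3. SAUR19 (AT5G18010) was near 1 RPKM in air, with 15, 11, 16 and 2 reads, and did not pass in R3 against air.

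These 6 genes lie in a cluster on chromosome 5 and are near copies, which bears on how far single values can be told apart. Their coding sequences were 88.3% to 95.9% identical between pairs, with 53 of 276 aligned positions variable. The 53 include 9 positions with a gap in some copy, which the identities leave out. The 90 bases with the most variable positions are shown as coding strand, with the 20 variable positions in capitals.
SAUR19: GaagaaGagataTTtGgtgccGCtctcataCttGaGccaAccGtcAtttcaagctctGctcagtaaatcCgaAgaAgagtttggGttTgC
SAUR20: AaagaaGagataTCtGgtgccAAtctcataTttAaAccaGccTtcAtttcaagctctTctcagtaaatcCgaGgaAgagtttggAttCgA
SAUR21: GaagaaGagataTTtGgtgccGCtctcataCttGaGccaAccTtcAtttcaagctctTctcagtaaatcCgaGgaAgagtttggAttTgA
SAUR22: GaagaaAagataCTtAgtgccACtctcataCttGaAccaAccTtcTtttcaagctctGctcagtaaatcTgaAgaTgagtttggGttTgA
SAUR23: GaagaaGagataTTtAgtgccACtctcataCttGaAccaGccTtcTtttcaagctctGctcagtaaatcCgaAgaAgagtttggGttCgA
SAUR24: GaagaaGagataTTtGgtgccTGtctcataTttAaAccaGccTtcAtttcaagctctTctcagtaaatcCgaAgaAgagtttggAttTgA
Between 0.573% (SAUR22) and 18.5% (SAUR19) of the 50-base words of each gene occurred elsewhere in the genome, so reads could move between copies, SAUR19 most of all. The sum of RPKM also depends on how reads were shared, since the lengths behind the 6 values differ, but its direction was the same as that of each member that passed.

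In myc2, the GH3 genes were again higher and the SAUR genes again lower in R3, whereas the Aux/IAA genes lay lower relative to all genes than in WT. Of 29 members that pass, 4 were at least 2-fold higher in R3 (IAA10, IAA28, GH3.2 and GH3.5) and 7 at least 2-fold lower (IAA8, IAA17 and SAUR20 to SAUR24). Over 17737 genes, 23.5% were higher and 11.5% lower. After rescaling 4 were higher and 10 lower, against 17.1% and 15.9%. GH3.2 was under 1 RPKM in myc2 air, and SAUR22 and SAUR23 were in myc2 R3, so these members pass only through the other library. The median log2 ratio was -0.14 for 20 Aux/IAA genes, 1.21 for 4 GH3 genes and -2.35 for 5 SAUR genes. Less the median of all genes, these were -0.44, 0.91 and -2.66. As a summed level, Aux/IAA transcripts were at 523 RPKM in myc2 air and 519 in myc2 R3.

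**Figure D2:**
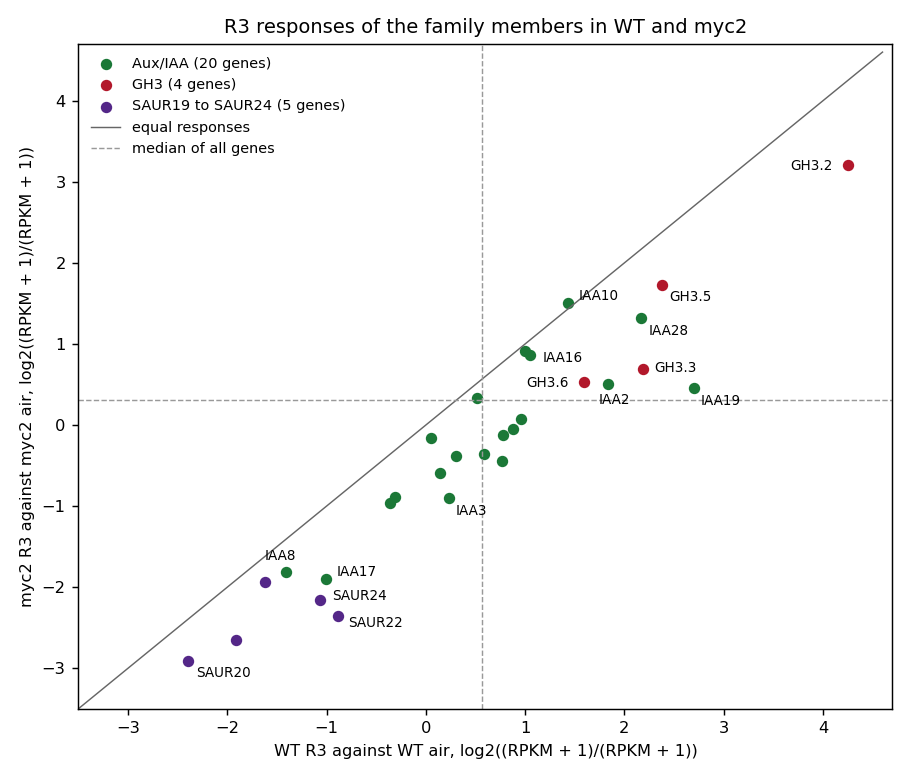
log2 ratio of R3 over air in WT (x axis) and myc2 (y axis) for the 29 members that pass 1 RPKM in both comparisons, coloured by family. The solid line marks equal responses and dashed lines the medians of all genes, 0.57 and 0.30. Most points lie below the solid line, with IAA19 farthest from it.

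Across the 29 members the responses of WT and myc2, which share no library, ran together (Pearson r = 0.94). Over all 17097 genes r was 0.92, and within the 20 Aux/IAA genes it was 0.85. These are descriptions with no test, and the 29 members pool families that went in opposite directions. Relative to the median of all genes, 10 members were higher in R3 in both genotypes, 13 were lower in both, 5 were higher in WT only and 1 in myc2 only. As deposited, 8 of 20 Aux/IAA genes were higher in WT R3 than WT air and lower in myc2 R3 than myc2 air, and none the reverse, against 10.6% and 2.52% of all genes. After rescaling, 4 of 20 had this pattern and 1 the reverse, against 7.35% and 6.75% of all genes.

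The difference of responses (the myc2 log2 ratio of R3 over air minus its WT counterpart) was below 0 for 29 of 30 members. Of the 30, 10 were at least 2-fold lower in this measure and 0 higher, against 5.20% and 1.51% of 17540 genes. After rescaling 4 were lower and 0 higher, against 3.00% and 2.84%. The median of all genes was -0.16, and 28 of the 30 members lay below it, or 26 of 30 below the median of 0.07 after rescaling. Family medians were -0.86 for Aux/IAA, -1.05 for GH3 and -0.74 for SAUR. Less the median of all genes, they were -0.69, -0.89 and -0.58, and each stayed below 0 under every setting tried.

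IAA19 had the lowest difference, -2.25. Its myc2 fold was 1.45 (1.21 to 1.73), against 10.1 in WT. GH3.3 followed at -1.50, with a myc2 fold of 1.98 (1.59 to 2.47). Of the other members at least 2-fold lower, SAUR22 was at -1.47, IAA2 at -1.33, IAA27 at -1.20, IAA5 at -1.18, IAA3 at -1.13, SAUR24 at -1.09, GH3.6 at -1.07 and GH3.2 at -1.04. GH3.2 nevertheless remained the member with the highest myc2 fold, 18.4 (14.3 to 24.1). IAA10 at 0.07, IAA18 at -0.08, IAA16 and IAA12 at -0.19 and IAA11 at -0.21 responded most alike in the genotypes.

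**Figure D3:**
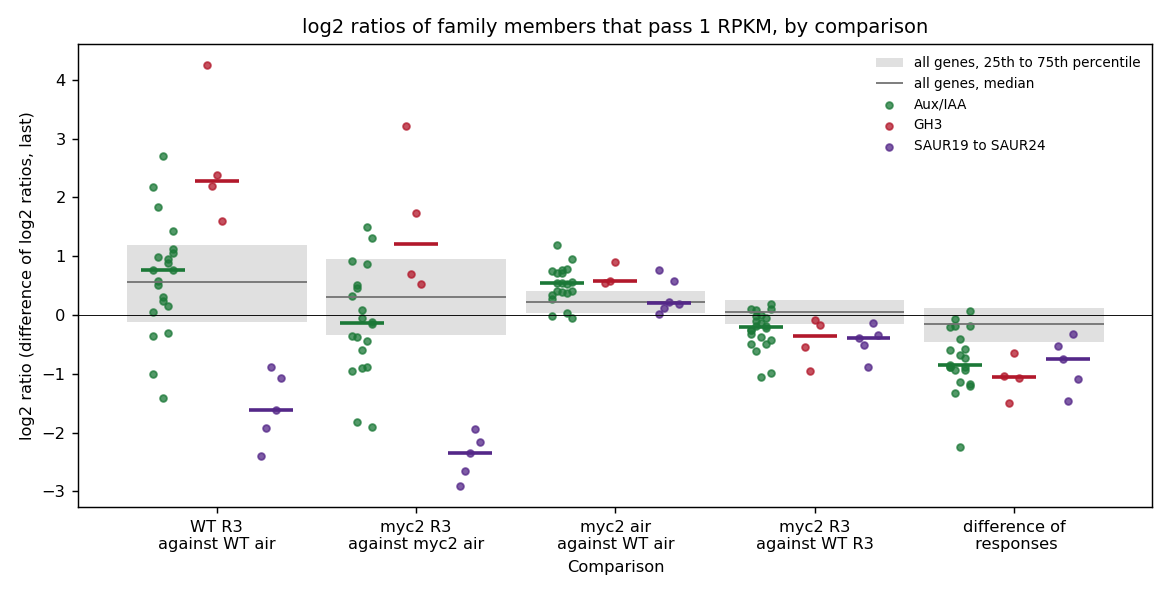
log2 ratio of each member that passes 1 RPKM (points) and family median (coloured bars) in the 4 comparisons, and the difference of responses last. Grey marks the median and the quartiles of all genes. The SAUR points lie below the grey band in both R3 comparisons, and the Aux/IAA points lie mostly above the grey median in myc2 air against WT air and below it in myc2 R3 against WT R3.

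For the Aux/IAA and GH3 medians, the lower difference was made up of a higher level in myc2 air and a lower level in myc2 R3, each measured against WT. The SAUR median was close to that of all genes in air and below it in R3. In air, 1 of 29 members, IAA19, was at least 2-fold higher in myc2 and 0 lower, against 2.47% and 0.343% of 16616 genes, and 23 of the 29 lay above the median of all genes. The Aux/IAA median was 0.54, which is 0.32 above that of all genes, the GH3 median 0.57, which is 0.35 above it, and the SAUR median 0.20, which is 0.01 below it. IAA19 was 3.14-fold higher in myc2 air (2.41 to 4.14). IAA28 was 2.15-fold higher (1.67 to 2.78) and GH3.6 2.04-fold higher (1.80 to 2.32), both under the limit on the log2 scale.

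In R3, 0 of 31 members were at least 2-fold higher in myc2 and 1, IAA19, was lower, against 1.92% and 1.60% of 17491 genes, and 27 of the 31 lay below the median of all genes. IAA19 was 2.23-fold lower in myc2 R3 than in WT R3 (1.93 to 2.59). GH3.3 was 2.22-fold lower (1.89 to 2.61), IAA5 3.12-fold lower (1.78 to 5.79) and SAUR22 3.70-fold lower (1.38 to 12.5). On the log2 scale GH3.3, IAA5 and SAUR22 lay under the limit, at -0.96, -0.99 and -0.89. Family medians, less that of all genes, were -0.24 for Aux/IAA, -0.40 for GH3 and -0.44 for SAUR. These 2 genotype comparisons share libraries with the R3 responses, so they restate the same 4 values and add no evidence.

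The genes around these families in the auxin pathway are described against the same backgrounds. Auxin synthesis genes were low in leaf, with 3 of 14 past 1 RPKM in WT. Of these, 1 was at least 2-fold lower in R3 and 2 after rescaling, against 10.1% and 17.1% of all genes. TAA1, which makes indole-3-pyruvate from tryptophan, was at 2.47 RPKM in air and 1.12 in R3 in WT, and at 3.14 and 0.863 in myc2, and its relative TAR2 at 2.18, 0.440, 2.94 and 0.625 RPKM. No YUC gene reached 2 RPKM, and YUC6 was at 0.893, 1.27, 1.14 and 0.904 RPKM.

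Genes of auxin oxidation and conjugate hydrolysis stood highest. Of 9 that pass in WT, 6 were at least 2-fold higher in R3 and none lower, against 31.3% and 10.1% of all genes. In myc2 5 of 9 were higher, against 23.5%. After rescaling 5 of 9 were higher in WT and 5 of 9 in myc2, against 17.3% and 17.1% of all genes. IAR3, which releases auxin from its alanine conjugate and also acts on jasmonate conjugates, was at 20.0, 177, 12.9 and 62.5 RPKM. ILR1, a hydrolase of leucine and phenylalanine conjugates, was at 3.85, 37.7, 3.57 and 20.1 RPKM, and so was also higher in R3 in either genotype. DAO1, the main auxin oxidase, was at 4.25, 13.9, 3.80 and 11.6 RPKM, while ILL1 stayed between 14.5 and 16.3. ILL2 was at 5.68, 10.6, 6.73 and 11.5 RPKM. For genotypes compared in R3, 3 of 9 were at least 2-fold lower in myc2, against 1.60% of 17491 genes. These were ILL6, DAO2 and IAR3, at log2 ratios of -2.25, -1.51 and -1.49, so they include a gene that also acts on jasmonate conjugates.

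**Figure D4:**
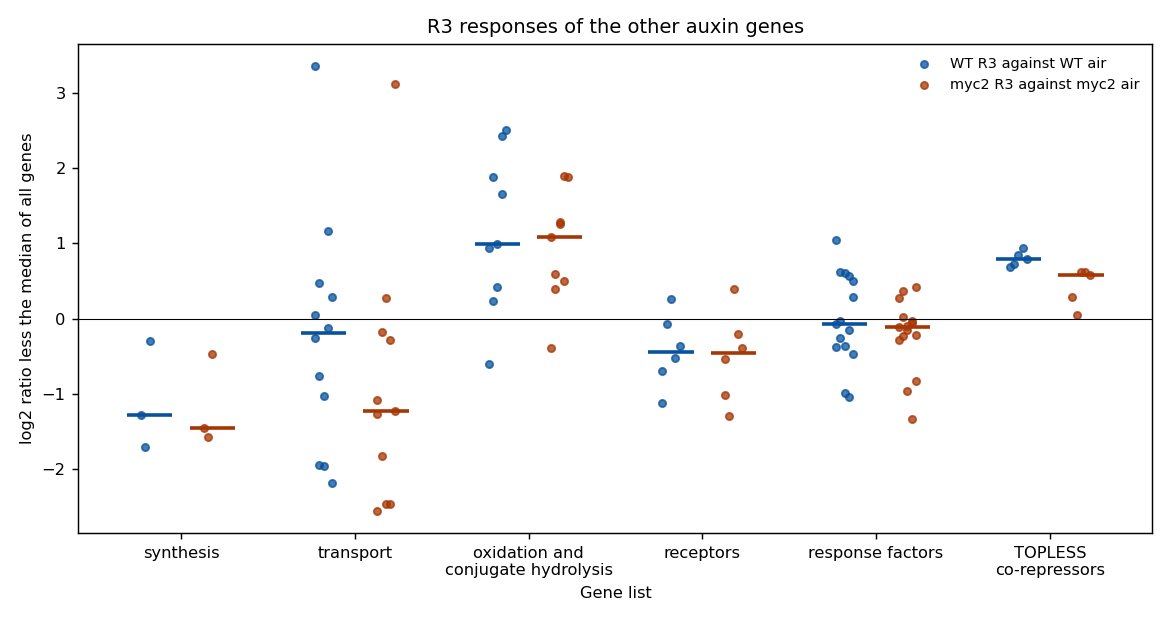
log2 ratio of R3 to air less the median of all genes (y axis) for genes of 6 auxin lists that pass 1 RPKM, in WT and in myc2, with list medians as bars. The oxidation and conjugate hydrolysis genes have medians of 0.99 in WT and 1.09 in myc2, and the receptors -0.44 and -0.46.

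Transport genes went in either direction. Of 12 that pass in WT, 3 were at least 2-fold higher and 3 lower, against 31.3% and 10.1% of all genes. In myc2 1 of 11 was higher and 4 were lower, against 23.5% and 11.5%. After rescaling 2 were higher and 3 lower in WT, against 17.3% and 17.1%, and 1 and 6 in myc2, against 17.1% and 15.9%. The auxin transporter ABCB4 was at 1.03, 29.8, 1.11 and 21.7 RPKM and the influx carrier LAX3 at 1.78, 8.24, 4.19 and 6.76. The efflux carriers PIN4, at 23.6, 8.31, 31.3 and 6.20 RPKM, and PIN7, at 30.6, 9.21, 38.0 and 7.70 RPKM, were lower in both R3 libraries. The difference of responses was at least 2-fold lower for 4 of 12 transport genes and higher for none, against 5.20% and 1.51% of all genes. With rescaling it was lower for 1 of 12, against 3.00%.

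None of the 6 receptors was at least 2-fold apart between R3 and air in either genotype as deposited. After rescaling 1 was lower in R3 in WT and 2 in myc2, against 17.1% and 15.9% of all genes. In each genotype 5 of 6 lay below the median of all genes. TIR1 was at 29.9, 19.9, 29.97 and 17.8 RPKM, AFB2 at 10.6, 19.6, 11.9 and 19.9 and AFB5 at 25.4, 23.0, 26.5 and 22.4. AFB1 had the receptor level 2-fold apart between the genotypes in air, at 7.46 RPKM in WT and 17.6 in myc2, with 10.9 in WT R3 and 8.38 in myc2 R3. After rescaling no receptor passed the limit in air.

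Of 15 ARFs, 5 were at least 2-fold higher in WT R3 and none lower. In myc2 none was higher and 1 was lower, against 23.5% and 11.5% of all genes. The WT count is close to the 31.3% of all genes, and after rescaling 1 of 15 was higher, against 17.3%. ARF6 was at 7.83, 26.0, 14.4 and 22.1 RPKM, ARF7 at 5.18, 13.1, 6.38 and 10.8 and ARF19 at 1.91, 2.10, 2.49 and 1.43. The lowest WT ratios were those of ARF3, at 9.75, 6.99, 11.7 and 7.06 RPKM, and ARF18, at 1.93, 1.11, 4.36 and 1.60. All 5 TOPLESS genes were at least 2-fold higher in WT R3 and none in myc2, against 31.3% and 23.5% of all genes. With rescaling 1 of these 5 was higher in WT and 0 in myc2, against 17.3% and 17.1%. Their median lay 0.79 above that of all genes in WT and 0.59 above it in myc2. TPL itself was at 12.4, 31.1, 15.4 and 23.6 RPKM and TPR1 at 4.64, 12.9, 6.87 and 9.01. TPR2 was at 4.69, 14.1, 5.84 and 12 RPKM and TPR3 at 1.07, 4.92, 1.71 and 4.13.

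The last list holds 10 growth regulators known to act upstream of SAUR and Aux/IAA genes, and their part in those levels was not tested. PIF4, a light and temperature signalling factor that promotes elongation, was at 25.4, 8.37, 35.4 and 7.99 RPKM. HY5, which promotes light-grown development and opposes elongation, was at 5.33, 33.5, 5.90 and 32.8 RPKM. PIF3 was at 2.31, 6.28, 2.91 and 6.15 RPKM and PIF1 at 5.51, 3.00, 6.18 and 3.96. Of the 10, 2 were at least 2-fold higher and 1 lower in WT, against 31.3% and 10.1% of all genes. In myc2 1 was higher and 1 lower, against 23.5% and 11.5%. After rescaling 1 was higher and 4 were lower in WT, against 17.3% and 17.1%, and 1 and 1 in myc2, against 17.1% and 15.9%.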

How the data were processed

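RNA sequencing of leaf gave 4 libraries, 1 per group, grouped by their titles. The authors deposited RPKM values for 31319 loci per library. Per the file headers, WT R3 instead holds FPKM, but all 4 tables are named as RPKM and were treated as 1 unit. The submitters' processing notes name TopHat, Cufflinks and TAIR10. Versions, settings and use of strand were not given in the sources used here. No group has a second library, and no test was run: a model without a genotype by condition term would spend the difference of responses, which is described here, as its error.

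Log2 ratios used a pseudocount of 1 RPKM and genes whose mean over the libraries compared reached 1 RPKM, and genes at least 2-fold apart were counted. Whole reads were recovered from the steps of the values: 1725 of 1732 genes tried (99.6%) had a length that made all 4 values whole within 0.005 of a read. For 34 of 35 members such a length was found, and for 2 of these (IAA28 and SAUR24) several multiples were possible and the smallest was taken, so their reads are a minimum and their intervals the widest. Intervals are exact (Poisson for levels, Clopper-Pearson for folds, 95%) and cover counting error only. These steps were tested on simulated data. The members and the gene lists were chosen with earlier results of these data known. All 35 members are described, and of each other auxin list the 2 highest and 2 lowest WT log2 ratios among genes whose mean over all 4 reached 1 RPKM, with TIR1, ARF7, ARF19, TAA1, DAO1 and PIF4 always, and MYC2 and tissue markers. AFB1 and TPR1 to TPR3 fall under this rule. DAO2 and ILL6 do not, and are named only as genes counted as lower in myc2 R3. Sequences and gene positions are from RefSeq on TAIR10.1, with SAUR sequences aligned by MAFFT 7.526. Computation used Python 3.11.15, numpy 2.4.6, pandas 2.3.3, scipy 1.17.1 and Biopython 1.88.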

Additional observations from a re-analysis of the deposited data

Results flagged for a closer look

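IAA3, IAA5 and IAA27 were singled out because the deposited levels moved in opposite directions in the genotypes, higher in WT R3 than in WT air and lower in myc2 R3 than in myc2 air, with responses at least 2-fold apart. The difference of responses was -1.13 for IAA3, -1.18 for IAA5 and -1.20 for IAA27, on the log2 scale. With 1 library per group the difference was not tested. With the libraries rescaled by their median ratio these values were -0.87, -0.999 and -0.94, so none of the 3 reached the 2-fold limit. Less the median of all genes, IAA3 lay below 0 in both genotypes, at -0.34 in WT and -1.21 in myc2, whereas IAA27 lay at 0.20 and -0.74. IAA5 rested on 16 to 62 reads per library, did not pass 1 RPKM in the myc2 comparison, and had a myc2 fold of 0.91 (95% counting interval 0.452 to 1.79), so its direction in myc2 lies within counting error. All 3 genes overlap a gene on the opposite strand, by 640 bases for IAA3, 48 for IAA5 and 41 for IAA27. The part of those overlapping genes in the values was not tested.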

How the results depend on the processing

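With 1 library per group, no library could be left out. No paired analysis was possible because each group has 1 library, so the groups compared share a single replicate number. Of the counts of members at least 2-fold apart, recomputed under 7 alternatives, 57 stayed within 1.5 times the reported count and 13 did not. The 57 include counts that were 0 as reported and stayed at 0. These were members lower in myc2 air, higher in myc2 R3 and higher in the difference of responses. For WT R3 against WT air, 16 members were higher with each library rescaled to an equal sum (10 as reported) and 3 were lower with a pseudocount of 5 (6 as reported). For myc2 air against WT air, the 1 member higher became 3 with a pseudocount of 0.1, 0 with a pseudocount of 5, 0 with a filter at 5 RPKM and 2 with an equal sum. For myc2 R3 against WT R3, the 1 member lower became 4 with a pseudocount of 0.1, 0 with a pseudocount of 5, 4 with an equal sum and 2 without the 50 highest genes in the sum. For the difference of responses, the 10 members lower became 2 with a pseudocount of 5, 4 with the median of ratios and 16 with an equal sum. The cause was not tested. Of the values of single members and families under these alternatives, 906 stayed within the set limit, 203 moved and 0 changed sign while called. Each family median, less that of all genes, kept its direction in each comparison and setting, except SAUR in myc2 air against WT air, which was above 0 in 4 settings and below 0 in 5. Depth limits the genes with few reads, namely IAA5, IAA20, IAA29, IAA30, GH3.1, SAUR19, SAUR22 and SAUR23.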
